A study of Homo sapiens with 6 samples.

Results

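The genes described here are 54 genes of the G1/S transition, the replication fork and deoxynucleotide synthesis, chosen by symbol and matched through their Ensembl identifiers among the 60708 genes counted in each library. All 54 were found, and all 54 had enough counts to be tested. They were divided by role into G1/S regulators (9 genes), origin recognition and firing factors (13), replicative polymerase and primase subunits (9), the sliding clamp, its loader, the RPA complex and Okazaki fragment enzymes (12), nucleotide synthesis enzymes (5), chromatin factors that work behind the fork (4) and the fork protection pair (2).

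The 6 RNA-sequencing libraries came from wild-type U2OS cells, a human osteosarcoma line. They were biological triplicates, 3 of cells kept in the solvent DMSO (called DMSO) and 3 of cells kept in 25 µM PDD00017273 (called PARGi), and nothing more is said of how separate the cultures were, so that p-values measure the spread between these libraries. Both treatments lasted 4 days, in the same medium. PDD00017273 blocks PARG, or poly(ADP-ribose) glycohydrolase, which takes apart the poly(ADP-ribose) chains that PARP1 builds at nicks and at unligated Okazaki fragments.

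Cyclin E with CDK2 drives cells past the G1/S boundary by phosphorylating the retinoblastoma protein, which frees activator E2F proteins to switch on the genes of DNA synthesis. Origins bound by the origin recognition complex (ORC) are then fired by CDC7-DBF4 and CDK2, CDC45 and GINS join the MCM helicase, and the polymerases follow on the PCNA clamp. Many of these genes are transcribed in a wave from late G1 into S phase, so that in a bulk sample the share of cells in S phase and the amount of RNA per cell cannot be told apart.

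Each library held between 60286931 and 80605145 counts. Levels are depth-normalised counts (CPM) after trimmed-mean (TMM) scaling, given with the SD over 3 libraries, and "called" means an adjusted p under 0.05 over all genes tested in edgeR's quasi-likelihood test. The labelled cell type was checked against 7 osteosarcoma lineage markers. COL1A1, SPARC and RUNX2 were clearly detected, at 4374 ± 267.8, 1677 ± 17.1 and 83.3 ± 1.14 CPM in DMSO, whereas the late osteoblast markers BGLAP and SP7 lay at or below 0.135 CPM in every library. Of the 5 that were tested, 3 were called lower in PARGi: COL1A2 fell from 13 ± 1.38 to 7.41 ± 0.685 CPM (log2 fold change -0.80, adjusted p = 1.6e-08), more than any of the 54 genes, RUNX2 to 69 ± 0.606 CPM (-0.27, adjusted p = 4.96e-08) and SPARC to 1583 ± 10.9 CPM (-0.08, adjusted p = 0.00653). ALPL was called higher by edgeR (0.23, adjusted p = 0.0364) but not by DESeq2 or limma-voom. The summed level of the 7, most of it COL1A1, was 5887 to 6448 CPM in DMSO and 6031 to 6116 CPM in PARGi. TERT and the 7 markers of epithelial, blood, endothelial and liver cells summed to 8.05 to 8.89 CPM in DMSO and 8.16 to 9.55 CPM in PARGi. Of these, the epithelial cadherin gene CDH1 was called higher, at 0.718 ± 0.0247 and 1.14 ± 0.208 CPM (0.67, adjusted p = 0.0104), and EPCAM, at 3.53 ± 0.236 and 3.02 ± 0.0457 CPM, was not called (-0.22, adjusted p = 0.0912). The part of these markers in the values below was not tested.

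Genes of the G1/S wave often carry E2F and CCAAT strings just before their start. RefSeq promoters (GRCh38.p14) were found for 47 of the 54 genes, and CCNE2, CDK2, E2F8, GINS4, POLD3, RPA2 and RPA3 had no entry. In the 250 bases before any listed start, on either strand, an E2F string (TTTCCCGC, TTTGGCGC, TTTCGCGC or TTTGCCGC) was present for 17 of the 47 genes (36.2%), against 3.4% of 27305 genes in the whole table. CCAAT was present for 59.6% of the 47 against 37% of all genes, the GC box GGGCGG for 76.6% against 46.2%, and the cell cycle homology region (TTTGAA or TTCGAA) for 8.51% against 17.2%. A GC box can share bases with an E2F string. The 47 genes had 63 listed promoters. The 27305 genes were not limited to expressed genes or matched for base composition or number of starts. The following stretches show genes that differ in their change: CDC25A and PCNA (both higher in PARGi, with an E2F string), E2F2 (lower, with an E2F string), and RRM1 and TIMELESS (higher, with CCAAT and no E2F string in this window). They are written 5′ to 3′ on the gene's strand, and capitals mark the E2F and CCAAT strings.

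CDC25A, chr3:48188418-48188517, minus strand: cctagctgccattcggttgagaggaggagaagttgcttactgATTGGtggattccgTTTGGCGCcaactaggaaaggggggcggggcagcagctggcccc

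PCNA, chr20:5126628-5126727, minus strand: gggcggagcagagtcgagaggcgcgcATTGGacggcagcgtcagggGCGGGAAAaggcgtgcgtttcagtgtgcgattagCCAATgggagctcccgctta

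E2F2, chr1:23531234-23531333, minus strand: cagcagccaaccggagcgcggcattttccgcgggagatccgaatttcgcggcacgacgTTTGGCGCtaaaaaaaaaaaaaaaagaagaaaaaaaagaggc

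RRM1, chr11:4094585-4094684, plus strand: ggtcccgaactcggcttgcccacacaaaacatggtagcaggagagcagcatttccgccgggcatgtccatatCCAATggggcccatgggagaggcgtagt

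TIMELESS, chr12:56449427-56449526, minus strand: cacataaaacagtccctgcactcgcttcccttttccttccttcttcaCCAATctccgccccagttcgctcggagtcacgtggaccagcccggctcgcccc

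PARGi cells held slightly more of 25 of these 54 transcripts and less of 2 (E2F2 and DUT), and the other 27 were not called. Over all 20409 genes tested, 24.3% were called, 13.2% higher and 11.0% lower, against 50% and 46.3% of the 54 genes called in either direction and higher. By role, the called share was 55.6% of G1/S regulators, 46.2% of origin genes and 22.2% of polymerase genes. It was 58.3% of clamp, loader, RPA and Okazaki genes and 100% of nucleotide synthesis genes. Of the chromatin factors 25% were called, and of the fork protection pair 50%. The median log2 fold change of the 54 genes was 0.073, while that of all tested genes was -0.007. All 3 PARGi libraries lay above all 3 DMSO libraries for 31 of the 54 genes and below them for 3. Of all tested genes, 38.0% had groups that did not overlap in one or the other direction. The 20409 genes were not matched to the 54 for level, and smaller changes can be called in genes with more counts. The shares are therefore not like for like.

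The changes were small. The strongest rise was that of RRM2, by 21.3%. Taken without sign, the log2 fold changes of the 27 called members had a median of 0.124, below the 0.187 found for the 4951 genes called in all. Called or not, the median was 0.091 for the 54 genes and 0.109 for all 20409 genes tested. The size needed for a call depends on a gene's level, for which the called genes were not matched. When edgeR was asked whether a change exceeded 1.2-fold, 0 of the 54 genes passed, and 0 had an unadjusted p under 0.05; this question was not put to another tool. All 27 called genes had groups that did not overlap. The summed level of the 54 genes was 4920, 4920 and 4939 CPM in DMSO replicates 1 to 3 and 5290, 5276 and 5252 CPM in PARGi replicates 1 to 3.

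**Figure D1:**
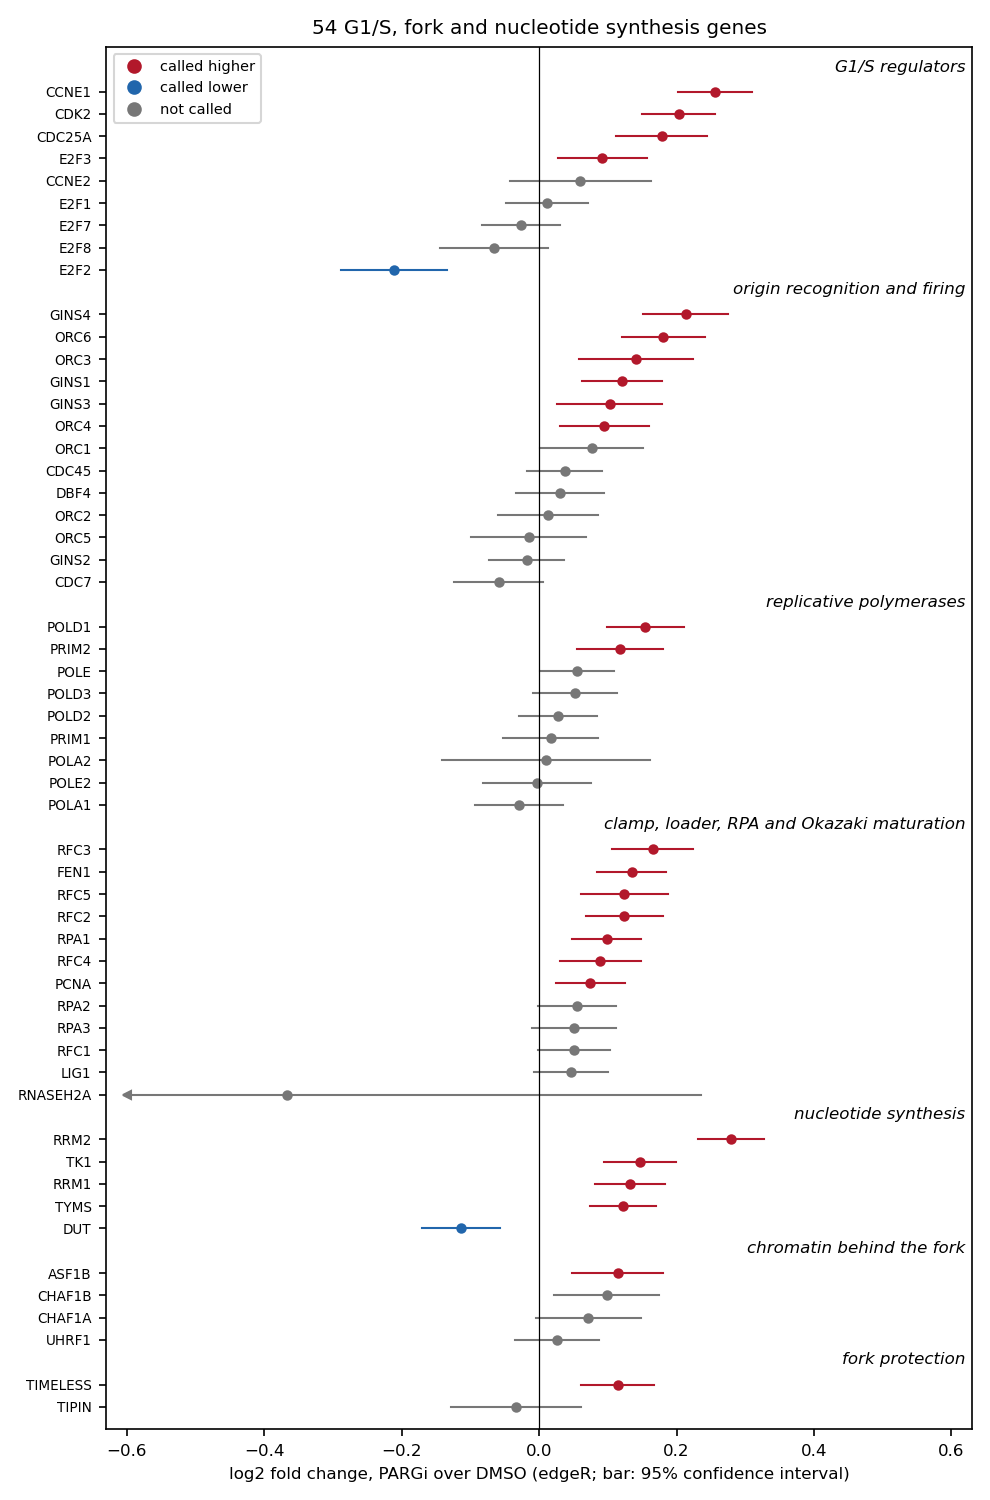
Log2 fold change of PARGi over DMSO (x axis, edgeR) for each of the 54 genes (y axis, grouped by role), with 95% confidence intervals as bars and colours for called higher, called lower and not called. The 25 red genes lie between 0.07 (PCNA) and 0.28 (RRM2), the 2 blue genes are E2F2 and DUT, and the arrow on RNASEH2A marks an interval that runs past the left edge.

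**Figure D2:**
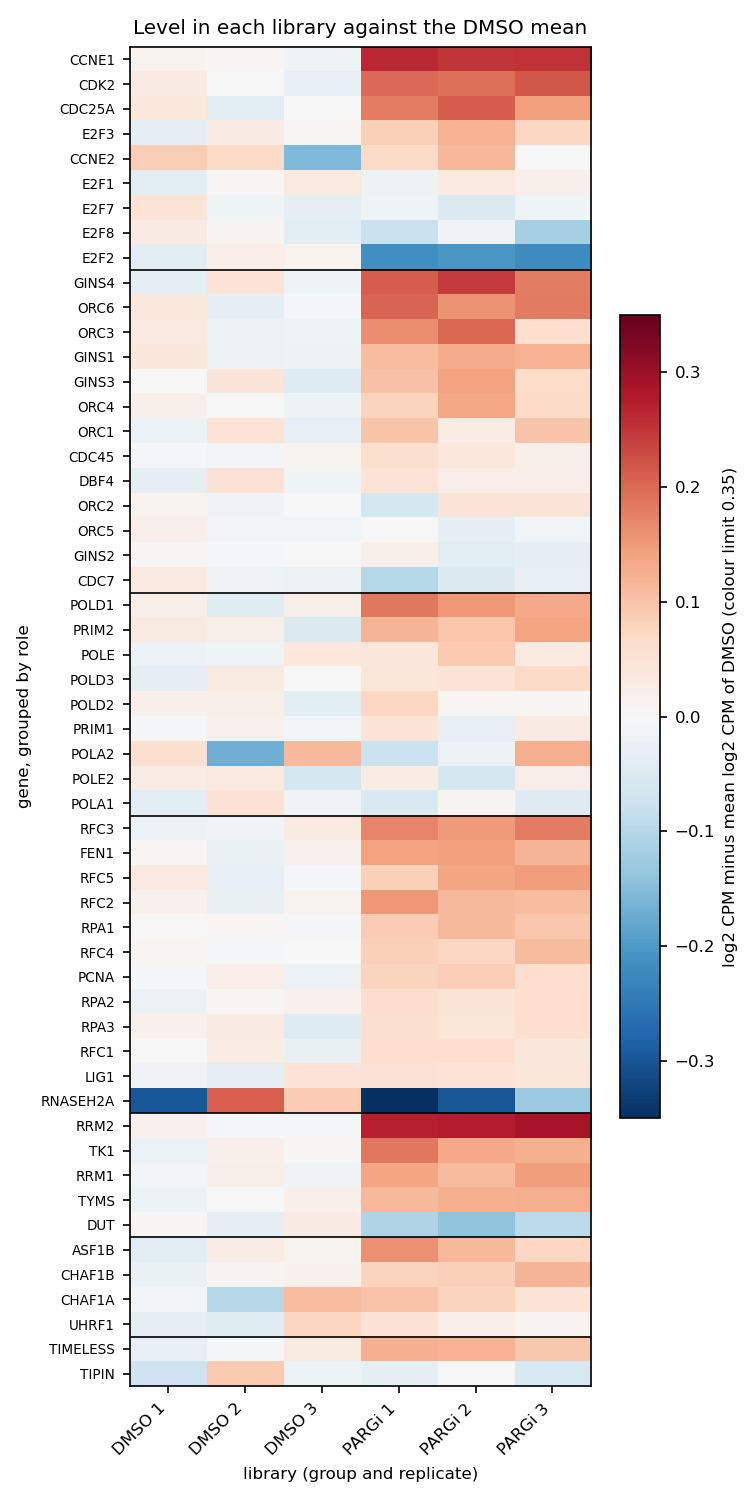
Log2 CPM of each library (columns) minus the mean log2 CPM of the DMSO libraries, for the 54 genes (rows, grouped by role, same order as the fold changes), with colours limited to 0.35 in either direction. In the 25 called-higher genes every PARGi column is redder than every DMSO column, and RNASEH2A, the gene with the fewest counts, varies most within DMSO.

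Among the G1/S regulators, the cyclin E1 and CDK2 transcripts and that of their activating phosphatase rose, and the E2F genes did not move as a group: of the 9 regulators 4 were called higher and E2F2 lower. CCNE1 (ENSG00000105173.14, chromosome 19, 29811898 to 29824308 on the plus strand in GENCODE 29, GRCh38) encodes cyclin E1. It was at 78.9, 78.4 and 77.4 CPM in the DMSO libraries and at 94, 93.1 and 93.2 CPM in the PARGi libraries. The groups did not overlap, and the log2 fold change was 0.26 (SE 0.026, adjusted p = 8.45e-08). CDK2, the catalytic partner of cyclin E, was at 126.5, 124.0 and 121.7 CPM in DMSO and at 142.4, 141.9 and 144.1 CPM in PARGi (log2 fold change 0.20, SE 0.026, adjusted p = 2.09e-06). CDC25A, the phosphatase that removes the inhibitory phosphates of CDK2, went from 47.3 ± 1.28 to 53.5 ± 1.23 CPM (log2 fold change 0.18, adjusted p = 0.000188).

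CCNE2, the second cyclin E gene, did not show the same separation. Its levels were 29.4, 29 and 24.9 CPM in DMSO and 29, 30 and 27.7 CPM in PARGi, with the lowest value in DMSO replicate 3 and the other libraries overlapping. The log2 fold change was 0.06 with a 95% confidence interval from -0.04 to 0.16 (adjusted p = 0.428), and without DMSO replicate 3 it was -0.016. The log2 ratio of CCNE1 to CCNE2 was 1.43, 1.44 and 1.64 in DMSO and 1.70, 1.64 and 1.75 in PARGi. Its means differed by 0.196, with DMSO replicate 3 and PARGi replicate 2 almost level (exact two-sided permutation test, p = 0.1, below which 3 against 3 libraries cannot go, and 0.167 adjusted over 5 ratios). CCNE1 was also the more abundant per length, at 30.7 ± 0.3 CPM per kb of exon in DMSO against 6.31 ± 0.561 for CCNE2.

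Of the activator genes, E2F2 was called lower, E2F3 was called higher and E2F1 was not called. The differences between these genes were not tested. E2F1 was at 70.4, 72.7 and 74.1 CPM in DMSO and at 71.5, 74.1 and 73.3 CPM in PARGi, an overlap that left an interval from -0.05 to 0.07 around a log2 fold change of 0.01 (adjusted p = 0.825). E2F2 (ENSG00000007968.7, chromosome 1, 23506430 to 23531220, minus strand) was at 28.5, 29.7 and 29.5 CPM in DMSO and at 25.2, 25.4 and 25.1 CPM in PARGi. It fell by 0.21 on the log2 scale (SE 0.037, adjusted p = 0.000151), the largest called fall among the 54 genes. E2F3 went the other way, from 46.4 ± 0.983 to 49.5 ± 0.873 CPM (log2 fold change 0.09, adjusted p = 0.0339). The call of E2F3 was lost in 7 of 17 alternatives, the test against a 1.2-fold change among them. E2F7 and E2F8, the atypical E2F proteins that repress the same targets late in S phase, were not called: E2F7 was at 116.1, 111.1 and 109.9 CPM in DMSO and at 111.1, 108.5 and 111.2 CPM in PARGi, and E2F8 had a log2 fold change of -0.07 with an interval from -0.15 to 0.01.

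**Figure D3:**
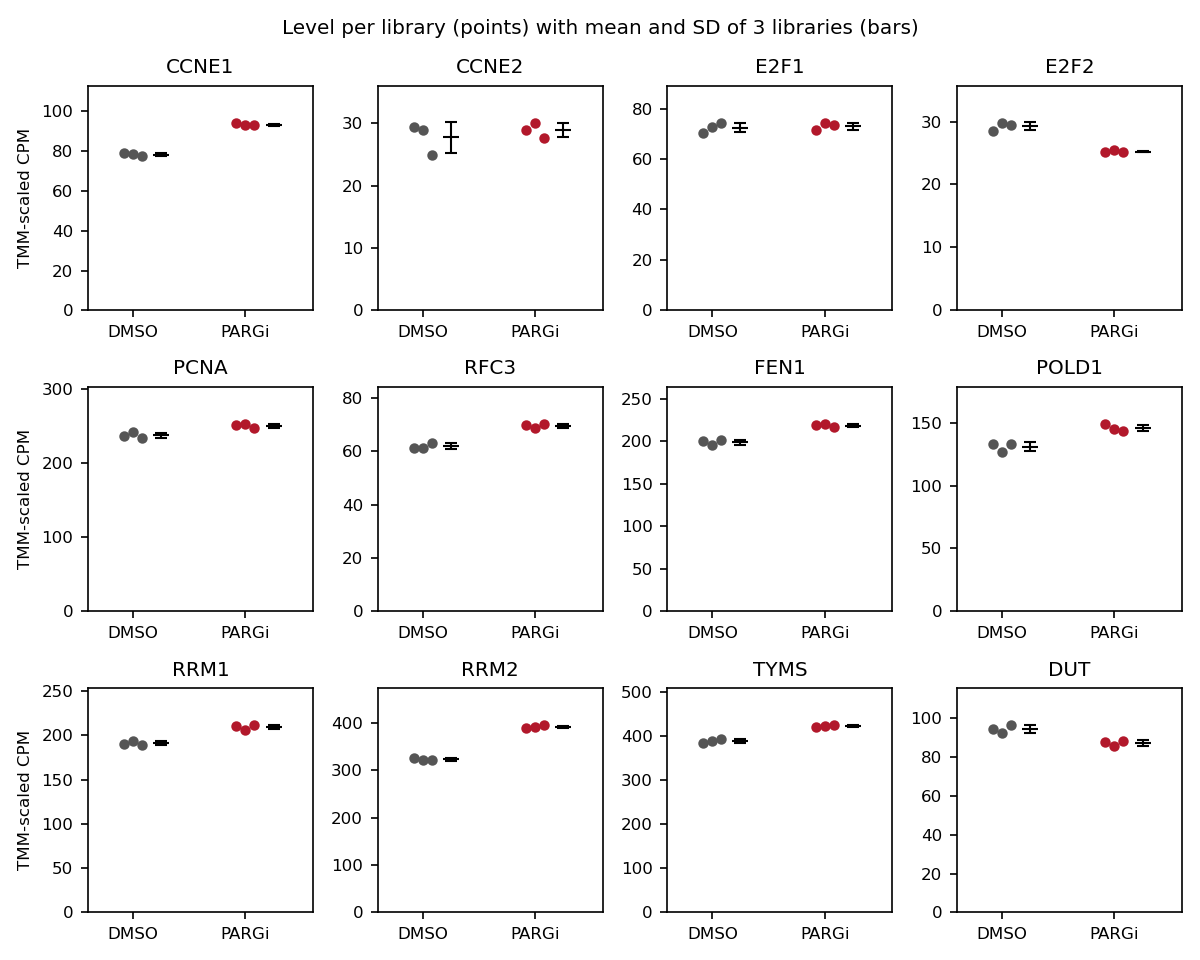
TMM-scaled CPM (y axis, from 0) of 12 of the genes in each DMSO and PARGi library (points), with the mean and SD of the 3 libraries beside them. The PARGi points lie above the DMSO points for CCNE1, PCNA, RFC3, FEN1, POLD1, RRM1, RRM2 and TYMS. They lie below the DMSO points for E2F2 and DUT and overlap with them for CCNE2 and E2F1.

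Of the 13 origin recognition and firing genes 6 were called higher (4 with DESeq2) and 0 lower, with edgeR, DESeq2 or limma-voom, or at an unadjusted p under 0.05 in edgeR, although the kinase CDC7 had all its PARGi libraries below DMSO. Within the ORC, which marks origins, ORC6, ORC3 and ORC4 were called. ORC6 was at 61.1, 58.3 and 59.4 CPM in DMSO and at 68.6, 66.5 and 67.6 CPM in PARGi (log2 fold change 0.18, SE 0.029, adjusted p = 5.43e-05). ORC3 rose from 28.7 ± 0.604 to 31.6 ± 1.59 CPM (0.14, adjusted p = 0.0114) and ORC4 from 45.8 ± 0.61 to 48.9 ± 1.24 CPM (0.10, adjusted p = 0.0303). ORC1, the subunit whose transcript and protein cycle, was at 33.7 ± 1 and 35.5 ± 1.06 CPM with overlapping groups (0.08, adjusted p = 0.137), and ORC2 and ORC5 had log2 fold changes of 0.01 and -0.02.

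Of the 4 GINS genes, whose products couple CDC45 to the helicase, 3 rose, and GINS2, the most abundant per kb of exon at 30.2 ± 0.0802 CPM per kb in DMSO, was not called. GINS4 was at 62.6, 66.2 and 63.3 CPM in DMSO and at 74.2, 75.9 and 72.5 CPM in PARGi, which is a log2 fold change of 0.21 (SE 0.030, adjusted p = 9.06e-06). GINS1 rose by 0.12 (adjusted p = 0.00271) and GINS3 by 0.10 (adjusted p = 0.0461). GINS2 was at 98.9, 98.3 and 98.6 CPM in DMSO and at 99.8, 96.1 and 96.4 CPM in PARGi, with 1 PARGi library above all DMSO libraries and the other two below (log2 fold change -0.02, interval from -0.07 to 0.04).

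CDC45 was at 81.5 ± 0.655 and 83.6 ± 1 CPM and was not called (0.04, adjusted p = 0.342), although all its PARGi libraries lay above DMSO. CDC7, the kinase that fires licensed origins, was at 51.9, 50.3 and 50 CPM in DMSO and at 47.3, 49 and 49.7 CPM in PARGi (-0.06, adjusted p = 0.19), and its activator DBF4 at 54.6 ± 1.75 and 55.8 ± 0.591 CPM. The log2 ratio of CDC7 to DBF4 differed by -0.092 between PARGi and DMSO, with overlapping libraries (exact two-sided permutation test, p = 0.2, adjusted 0.25 over 5 ratios).

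The replicative polymerases and primase had the lowest median log2 fold change of the 7 roles, 0.027. Of 9 genes 2 were called, both higher: POLD1 and PRIM2. POLD1, the catalytic subunit of the lagging-strand polymerase delta, was at 132.8, 126.9 and 132.8 CPM in DMSO and at 148.6, 145.2 and 143.4 CPM in PARGi (log2 fold change 0.15, SE 0.027, adjusted p = 0.000131). Its partners POLD2 and POLD3 had log2 fold changes of 0.03 and 0.05 and were not called, although all PARGi libraries of POLD3 lay above DMSO. PRIM2, the large primase subunit, was at 59, 58.5 and 55.7 CPM in DMSO and at 62.7, 61.7 and 63.5 CPM in PARGi (0.12, adjusted p = 0.00571), while the small primase subunit PRIM1 was at 38.2 ± 0.37 and 38.7 ± 1.03 CPM (0.02, adjusted p = 0.774). For POLD1 and PRIM1, 8.64% and 14.85% of the exonic bases overlap an annotated gene on the same strand that held 0 counts.

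POLE, the leading-strand polymerase, was at 181.8, 182.4 and 189.1 CPM in DMSO and at 189.4, 196.6 and 189.0 CPM in PARGi. Only DMSO replicate 3 reached the PARGi range, and the log2 fold change of 0.06 was not called (adjusted p = 0.133). Without that library the log2 fold change of POLE was 0.073 (adjusted p = 0.0385). Over the alternatives with a test against no change, it ran from 0.031 to 0.091. POLE2, its second subunit, had a log2 fold change of -0.003, and the log2 ratio of POLE2 to POLE differed by -0.059 (exact two-sided permutation test, p = 0.5, adjusted 0.5 over 5 ratios). POLA1, the catalytic subunit of the primer-making polymerase alpha, was at 60.2 ± 1.89 and 59 ± 1.42 CPM (-0.03, adjusted p = 0.558). POLA2 was read at only 8.5 ± 0.864 and 8.54 ± 0.631 CPM, and 35.1% of its exonic bases overlap another annotated gene on the same strand. Its level may be undercounted, which was not tested.

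Of the 12 clamp, loader, RPA and Okazaki fragment genes 7 were called higher, and 0 lower by edgeR, DESeq2 or limma-voom or at an unadjusted edgeR p under 0.05. All 5 subunit genes of replication factor C (RFC), which loads PCNA onto primed DNA, had PARGi libraries above DMSO, and 4 were called. RFC3 was at 61.1, 61.4 and 63.3 CPM in DMSO and at 69.7, 68.6 and 70.1 CPM in PARGi (log2 fold change 0.17, SE 0.028, adjusted p = 0.000112). RFC2 and RFC5 each rose by 0.12 (adjusted p = 0.00151 and 0.00417) and RFC4 by 0.09 (adjusted p = 0.0243). RFC1, the large subunit, was at 123.6 ± 2.15 and 128.0 ± 0.998 CPM and missed the threshold (0.05, adjusted p = 0.161).

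PCNA, the sliding clamp and also a known p53 target, was at 236.4, 241.1 and 233.8 CPM in DMSO and at 250.4, 251.7 and 246.9 CPM in PARGi. The groups did not overlap, and the log2 fold change was 0.07 (SE 0.024, adjusted p = 0.0278). PCNA was the most abundant of the 54 genes per kb of exon in DMSO, at 161.2 ± 2.51 CPM per kb, next to TYMS at 157.4 ± 1.96. In PARGi their order was the other way round, at 169.7 ± 1.7 and 171.3 ± 0.889, a difference within the SD of PCNA.

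FEN1, the nuclease that cuts the flaps of Okazaki fragments, was at 199.9, 195.7 and 200.9 CPM in DMSO and at 219.0, 219.7 and 216.1 CPM in PARGi (log2 fold change 0.13, SE 0.024, adjusted p = 0.000215). LIG1, the ligase that seals them, was at 183.9, 181.0 and 191.7 CPM in DMSO and at 192.1, 191.8 and 191.1 CPM in PARGi. DMSO replicate 3 lay inside the PARGi range, and LIG1 was not called (0.05, adjusted p = 0.213). Without that library the log2 fold change was 0.070 (adjusted p = 0.039). Over the alternatives with a test against no change, that of LIG1 ran from 0.022 to 0.070. Of the single-strand binding complex RPA, RPA1 rose from 156.4 ± 0.731 to 167.4 ± 1.57 CPM (0.10, adjusted p = 0.00424), and RPA2 and RPA3, whose groups did not overlap either, had log2 fold changes of 0.06 and 0.05 (adjusted p = 0.152 and 0.23). RNASEH2A, which helps to remove RNA from DNA, was read in 137 counts over all 6 libraries (0.371 ± 0.0644 and 0.283 ± 0.0608 CPM). Of its exonic bases, 30.8% overlap another gene on the same strand. Its level too may be undercounted, which was not tested. The interval of RNASEH2A, from -0.97 to 0.24, leaves its direction undetermined.

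All 5 nucleotide synthesis genes were called, 4 higher and 1 lower, with a median log2 fold change of 0.132. RRM2 (ENSG00000171848.16, chromosome 2, 10120698 to 10131419, plus strand) encodes the small subunit of ribonucleotide reductase, which makes deoxynucleotides and limits the enzyme in S phase. It was at 326, 321 and 322 CPM in DMSO and at 390.1, 391 and 395 CPM in PARGi. The 2 groups were far apart relative to their SDs of 2.71 and 2.39, and the log2 fold change of 0.28 (SE 0.023, adjusted p = 3.47e-09) was the largest rise among the 54 genes. Of the exonic bases of RRM2, 20.2% overlap another annotated gene on the same strand that held 0 counts. The level of RRM2 may also be undercounted, which was not tested. RRM1, the large subunit, was at 189.6, 193.6 and 189.4 CPM in DMSO and at 210.0, 206.2 and 211.1 CPM in PARGi (0.13, SE 0.024, adjusted p = 0.00029).

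RRM2 was higher relative to RRM1 and lower relative to RRM2B in each PARGi library. The log2 ratio of RRM2 to RRM1 was 0.783, 0.731 and 0.763 in DMSO and 0.893, 0.923 and 0.903 in PARGi, a difference of 0.147. RRM2B, the alternative small subunit that p53 induces and that is not among the 54 genes, was at 124.3, 125.0 and 123.5 CPM in DMSO and at 166.4, 175.0 and 177.7 CPM in PARGi (log2 fold change 0.48, adjusted p = 5.28e-12). The log2 ratio of RRM2 to RRM2B was 1.39, 1.36 and 1.38 in DMSO and 1.229, 1.160 and 1.151 in PARGi, a difference of -0.198. For both ratios the groups did not overlap, and the exact two-sided permutation test gave p = 0.1, the smallest possible for 3 against 3 (0.167 adjusted over 5 ratios).

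TYMS and TK1, which make thymidylate by synthesis and by salvage, rose as well. TYMS was at 383.9, 388.9 and 393.6 CPM in DMSO and at 420.6, 423.8 and 424.8 CPM in PARGi (0.12, SE 0.023, adjusted p = 0.000399). TK1 was at 207.1, 212.8 and 210.7 CPM in DMSO and at 238.7, 230.4 and 229.0 CPM in PARGi (0.15, SE 0.025, adjusted p = 0.000125). DUT (ENSG00000128951.14, chromosome 15, 48331011 to 48343373, plus strand) encodes the dUTPase that keeps uracil out of DNA and supplies dUMP to thymidylate synthase. It was at 94.6, 92.3 and 96.4 CPM in DMSO and at 87.7, 85.6 and 88.6 CPM in PARGi, the only one of these enzymes below DMSO in all 3 libraries, with a log2 fold change of -0.11 (SE 0.027, adjusted p = 0.00343). DUT has 8 annotated pseudogenes, which together held 12 counts against 37759 for DUT over the 6 libraries.

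Behind the fork, ASF1B, a chaperone that hands histones H3 and H4 to new DNA, was at 47.2, 49.3 and 48.9 CPM in DMSO and at 54.1, 52.4 and 51 CPM in PARGi (0.11, adjusted p = 0.0107). The chromatin assembly factor subunits CHAF1A and CHAF1B were not called (0.07 and 0.10, adjusted p = 0.169 and 0.0568); CHAF1B had PARGi libraries above DMSO, and CHAF1A ranged from 78.4 to 90.6 CPM within DMSO. Without DMSO replicate 3, CHAF1A had a log2 fold change of 0.128 (adjusted p = 0.00203). Over the alternatives with a test against no change, it ran from 0.023 to 0.128. UHRF1, which brings DNA methyltransferase to hemimethylated DNA, was at 147.6, 146.5 and 158.9 CPM in DMSO and at 156.3, 153.4 and 151.9 CPM in PARGi, with DMSO replicate 3 the highest library (0.03, adjusted p = 0.579).

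Of the fork protection partners, which hold the stalled fork together, TIMELESS was called and TIPIN was not; the difference between them was not tested. TIMELESS was at 160.0, 162.5 and 166.8 CPM in DMSO and at 177.9, 177.5 and 174.2 CPM in PARGi (0.11, SE 0.025, adjusted p = 0.00172). TIPIN, which binds TIMELESS, was at 19.3, 21.6 and 20 CPM in DMSO and at 19.8, 20.3 and 19.5 CPM in PARGi, with the PARGi values inside the DMSO range (-0.03, interval from -0.13 to 0.06). Of the exonic bases of TIPIN, 21% overlap a ribosomal protein pseudogene on the same strand that held 0 counts.

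E2F strings were found before genes that rose, genes that fell and genes that were not called. Of the 17 genes with such a string 6 were called higher and 2 lower, with a median log2 fold change of 0.026, and of the 30 genes without it 17 were called higher and 0 lower, with a median of 0.098. E2F1, whose promoter held 2 E2F strings, was not called, and E2F2 and DUT, the 2 genes that fell, each had at least 1. These are counts of letters in a fixed window, and no test was made.

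Of 25 other fork and firing factors, 12 were called higher and 0 lower by edgeR (0 lower also with DESeq2, with limma-voom and at an unadjusted p under 0.05), with a median of 0.078. DSCC1, a subunit of an alternative clamp loader, rose from 70.9 ± 1.23 to 82.6 ± 1.39 CPM (0.22, adjusted p = 1.85e-06) and the nuclease EXO1 from 50 ± 1.13 to 59 ± 1.72 CPM (0.24, adjusted p = 4.64e-06). Of 23 other nucleotide enzymes, 8 were called higher and 1 lower, with a median of 0.052. Besides RRM2B, SAMHD1, which degrades deoxynucleotides, rose from 42.4 ± 0.513 to 51 ± 1.25 CPM (0.26, adjusted p = 1.03e-06), and the mitochondrial thymidine kinase TK2 fell from 35.6 ± 0.804 to 33.1 ± 0.737 CPM (-0.10, adjusted p = 0.0322). TK2 lost the call with DESeq2 (adjusted p = 0.0883), without a filter (0.0707) and with the GC and length offset (-0.081, adjusted p = 0.078), and also without DMSO replicate 1 or 2 (-0.094 and -0.099) or PARGi replicate 2 or 3 (-0.102 and -0.089).

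Licensing factors, which load the helicase in G1, were divided: 3 of 9 were called higher and 3 lower (median 0.030). CDC6 and CDT1, the loaders, rose by 0.21 and 0.16 (adjusted p = 1.44e-06 and 0.00122), and GMNN, the CDT1 inhibitor, by 0.10. The helicase genes MCM6 and MCM5 fell by 0.20 and 0.15 (adjusted p = 8.7e-06 and 0.000199), and MCM2 by 0.11. The helicase genes MCM3, MCM4 and MCM7 were not called (-0.05, 0.03 and 0.03, adjusted p = 0.104, 0.369 and 0.394).

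Among 15 genes of retinoblastoma, E2F and cyclin E control, 4 were higher and 3 lower (median -0.007). CDKN1A, which encodes the p53-induced CDK inhibitor p21, was at 114.1, 116.2 and 119.2 CPM in DMSO and at 188.4, 198.6 and 196.8 CPM in PARGi (0.74, adjusted p = 3.72e-15). The CDK inhibitor genes CDKN1B and CDKN1C were lower (-0.37 and -0.54, adjusted p = 2.97e-10 and 2.53e-08), and the E2F partner TFDP1 was higher (0.19, adjusted p = 2.07e-06).

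Markers of G2 and mitosis moved in both directions beside the 54 genes, with 4 of 22 called higher, 4 lower and a median of 0.007. The called share was 36.4% and the higher share 18.2%, against 24.3% and 13.2% of all genes tested, which again were not matched for level. Of the other lists, 48% of the fork and firing factors and 39.1% of the nucleotide enzymes were called. The share was 66.7% for licensing factors and 46.7% for retinoblastoma, E2F and cyclin E control. CDK1 and UBE2C rose by 0.19 and 0.12 (adjusted p = 4.43e-06 and 0.00105), whereas CDC20 and PLK1 fell by 0.12 and 0.09 (adjusted p = 0.000822 and 0.0142). PLK1 lost the call without PARGi replicate 1 or 2 (-0.089 and -0.092). The summed level of the 22 markers was 4699 to 4911 CPM in DMSO and 4776 to 4831 CPM in PARGi, so that the groups overlapped. Whether a change in the share of cells in each phase has a part in the values of the 54 genes was not tested.

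**Figure D4:**
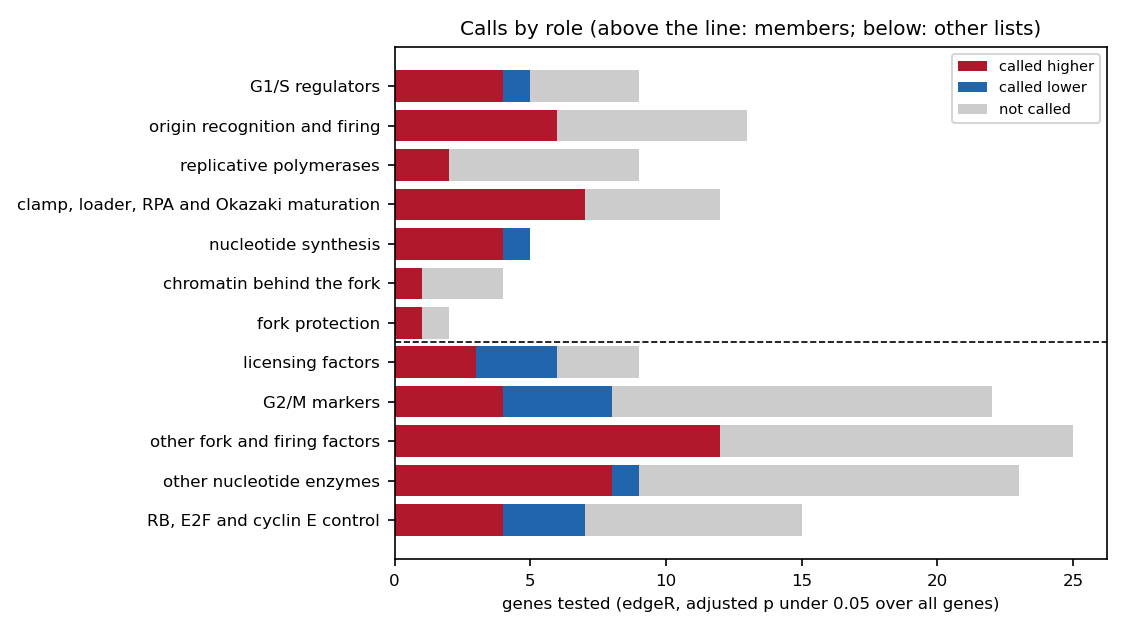
Number of tested genes (x axis) called higher, called lower and not called in PARGi for the 7 roles of the 54 genes (above the dashed line) and 5 other lists of the pathway (below it). Nucleotide synthesis is the only role with every gene called, 2 of 9 polymerase genes are called, and licensing factors and G2/M markers each have as many lower as higher calls.

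Of the 27 calls, 20 held in all 16 alternatives that kept a test against no change. The other 7, E2F3, ORC3, ORC4, GINS3, PCNA, RFC4 and ASF1B, kept their direction but lost the call in one or more alternatives. With DESeq2 the call was lost for E2F3, ORC4 and GINS3 (adjusted p = 0.0624, 0.0539 and 0.0909), with upper-quartile scaling for those 3, PCNA and RFC4 (log2 fold changes of 0.050 to 0.078), and without a filter for GINS3 (adjusted p = 0.0508). Single libraries mattered too. E2F3 lost it without DMSO replicate 1 (0.074) or any PARGi library (0.078 to 0.103), and GINS3 without DMSO replicate 1 or 3 (0.101 and 0.078) or any PARGi library (0.083 to 0.124). PCNA lost it without DMSO replicate 1 or 3 (0.070 and 0.063) or any PARGi library (0.069 to 0.083), and ORC4 without DMSO replicate 1 or 3 (0.102 and 0.084) or PARGi replicate 1 or 2 (0.102 and 0.074). RFC4 lost it without DMSO replicate 1 or 2 (0.090 and 0.086) or PARGi replicate 1 or 3 (0.092 and 0.078), ORC3 without PARGi replicate 1 or 2 (0.132 and 0.110), and ASF1B without DMSO replicate 1 or PARGi replicate 1 (0.093 and 0.094). Scaling moved the count as well. With upper-quartile scaling, which also cut the share of higher calls among all called genes from 54.5% to 40.5%, 20 of the 54 genes were called higher and 2 lower, and with an offset for GC content and length, which raised that share to 64.8%, 32 were higher and 2 lower. The genes gained with the offset were RPA2 (0.114, adjusted p = 0.00148), POLE (0.091, 0.00367), CHAF1B (0.119, 0.0141), ORC1 (0.111, 0.0181), CDC45 (0.079, 0.0183), RPA3 (0.077, 0.0337) and CHAF1A (0.082, 0.0413).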

How the data were processed

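Whole-number read counts per gene were deposited by the authors as 1 column per library, unnormalised. The submitters' processing notes name cutadapt 1.18, STAR 2.7.3a, SAMtools 1.9 and hg38; the annotation release and the treatment of reads that overlap 2 genes are not given in the sources used here. A stranded kit for total RNA was used, per the labels' protocols. Of 341 genes lying inside exons of an abundant gene on the other strand, 310 had counts, with a median of 0.0582% of that gene's count, so the counts were taken as stranded. Symbols were found for 60463 of 60708 identifiers; positions and merged exonic lengths are those of GENCODE 29.

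Genes were filtered with filterByExpr, TMM-scaled and tested with edgeR 4.0.16 (R 4.3.3; glmQLFit, two-sided glmQLFTest on treatment), with Benjamini-Hochberg adjustment over 20409 genes. Standard errors were derived from the F statistic and the fold change. Ratios of 2 genes used exact permutation tests. The genes, their lists and the tests were chosen with earlier results of these data known. Genes named were all 54; per-library values were given for 2 called genes a role and direction with the smallest p, the most abundant uncalled gene of each role and 8 fixed genes, and, for a few others, after their values were seen. From the other lists, up to 2 called genes a direction were named, with RRM2B and CDKN1A. GMNN, MCM2, MCM3, MCM4, MCM7 and the lineage markers were added after their values were seen. One further marker planned for this check is not reported here.

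On simulated counts of this comparison with 20098 genes in the step, 53.8% of 1.2-fold, 69.7% of 1.5-fold and 82.5% of 2-fold changes were called in the right direction. The simulation left 19904 genes unchanged, whereas 4951 of 20409 genes were called in the data. It held no change below 1.2-fold, so it does not show how often smaller changes, such as most of those above, are recovered. Its changed genes were drawn at random from all genes in the step. The shares therefore do not give the recovery at the levels of the 54 genes. Library pairs were checked for duplication, and their chi-square over its degrees of freedom was 2.19 to 5.61 inside a group and 11.6 to 14.5 across groups. The same replicate numbers occur in both groups, but deviations of same-numbered libraries correlated at -0.00585, 0.0157 and -0.00784, so no pairing was used. Alternatives were DESeq2 1.42.0, limma-voom (limma 3.58.1), DESeq2 size factors, upper-quartile scaling, no filter, at least 10 counts in every library, robust dispersions, a replicate block, a loess offset for GC content and length (span 0.3), both together, a test against a 1.2-fold change, and each library left out. Figures were drawn with matplotlib 3.10.9.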

Additional observations from a re-analysis of the deposited data

How the results depend on the processing

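The count of the 54 genes called higher was 25 in the main analysis, 22 with DESeq2, 25 with limma-voom, 20 with upper-quartile scaling, 32 with the GC and length offset, and 18 to 25 with single libraries left out; the 2 lower calls, E2F2 and DUT in the main analysis, numbered 2 in each of these. Against a 1.2-fold change, 0 were called higher and 0 lower, and of the other pathway genes 2 higher and 2 lower (CDKN1A, RRM2B, CDKN1B and CDKN1C), against 31 and 11 in the main analysis. Those other lower calls numbered 7 to 10, and higher calls 24 to 33, with single libraries left out. They were fewest, 7, without PARGi replicate 2. With the replicate block 25 of the 54 genes were higher and 2 lower, and no call among the 54 genes changed; the numbers were not shown to pair the libraries.

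The median log2 fold change of the 54 genes was 0.073. It was 0.049 with upper-quartile scaling, 0.099 with the GC and length offset, with or without the block, and 0.064 to 0.087 with single libraries left out. Minus the median of all genes it stayed between 0.070 and 0.094 in every alternative with such a value. The differences in the 5 log2 ratios kept their sign with each single library left out, from 0.159 to 0.264 for CCNE1 to CCNE2, 0.133 to 0.159 for RRM2 to RRM1 and -0.223 to -0.184 for RRM2 to RRM2B.

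Signs turned only in genes that were not called. GINS2 was 0.013 with the GC and length offset, and 0.013 with the block added. With upper-quartile scaling E2F1 was -0.013, ORC2 -0.012, POLA2 -0.014 and PRIM1 -0.008. POLE2 was 0.000 with DESeq2, 0.002 without a filter, 0.024 and 0.025 with the offset without and with the block, and -0.035 to 0.027 without single libraries. Without single libraries, CCNE2 ran from -0.016 to 0.10, E2F1 from -0.011 to 0.028, ORC2 from -0.005 to 0.046, POLA2 from -0.068 to 0.070 and TIPIN from -0.070 to 0.012. The cause was not tested.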
